A study of Mus musculus with 12 samples.

Results

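The guanylate-binding protein (Gbp) family was followed in mouse gingival tissue through 9 member genes, Gbp2 to Gbp10, of 21965 genes in the count table. The members were selected by symbol, with no threshold, when results of these same libraries in all comparisons below were already known. Differences between groups are therefore a description of these libraries, and an adjusted p is given only to say whether a member passed among all tested genes. RNA-seq libraries came from C57BL/6 wild-type (WT) mice and from Cybb-/- mice, called CybbKO, in which the gene for the catalytic subunit of the phagocyte NADPH oxidase Nox2 is disrupted throughout the body. Mice were under 12 weeks of age. A silk ligature tied around a maxillary molar for 8 days, which gathers bacteria and inflames the gum, gave the ligated groups, and the naive groups had no ligature. Each of the 4 groups, WT naive, CybbKO naive, WT ligated and CybbKO ligated, had 3 libraries numbered 1 to 3 by the labels, and p-values measure the spread between these libraries only.

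Guanylate-binding proteins are large GTPases of the dynamin superfamily that interferons, above all interferon-gamma, induce in macrophages, epithelium and many other cells. They assemble on vacuoles that hold pathogens and on bacteria free in the cytosol, help to break these open, and expose bacterial lipopolysaccharide and DNA to the inflammasome sensors caspase-11 and Aim2. In the mouse they act beside a second interferon-induced set, the immunity-related GTPases such as Irgm1, Irgm2 and Igtp, which direct them to the vacuole.

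Total counts lay between 27958819 and 42613423 in the 12 libraries. The 9 members together held 808 to 9509 of these counts, or 0.00289% to 0.0251% of a library, so that the rarest members rested on few reads. Markers of oral epithelium such as the keratins Krt13, Krt4 and Krt76 summed to between 58561 and 113141 CPM (counts per 1000000 counts of a library) in every library. WT naive replicates 3 and 1 stood apart in salivary gland markers, at 29371 and 63.7 CPM against 1646 to 5086 in the others. The transcript of the targeted gene ran against the name of the genotype. Cybb averaged 5.06 ± 0.758 CPM (SD, n = 3) in WT naive and 47.9 ± 7.56 CPM in CybbKO naive, and 12.1 ± 3.43 in WT ligated and 57.0 ± 6.31 in CybbKO ligated. It was the 1 gene of 15046 tested that passed in each comparison of genotypes, higher in the libraries labelled CybbKO. Whether a working protein is made cannot be read from these counts, and the groups are called by their labels throughout.

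The family lies in a pair of gene clusters (GRCm38, GENCODE M21). On chromosome 3, plus strand, the order of members was Gbp5 (ENSMUSG00000105504, 142493978 to 142522344), Gbp7 (ENSMUSG00000040253, 142530342 to 142550149), Gbp3 (ENSMUSG00000028268, 142560026 to 142573209) and Gbp2 (ENSMUSG00000028270, 142620602 to 142638008). On chromosome 5, minus strand, lie Gbp8 (ENSMUSG00000034438, 105014150 to 105139540), Gbp9 (ENSMUSG00000029298, 105077630 to 105139539), Gbp4 (ENSMUSG00000079363, 105115767 to 105139586), Gbp10 (ENSMUSG00000105096, 105215699 to 105239533) and Gbp6 (ENSMUSG00000104713, 105270702 to 105293698). All 9 are annotated as protein-coding. Gbp4, Gbp8 and Gbp9 overlap and share 60 to 61 exon bases, so reads from there cannot be given to 1 of them. Gbp6 and Gbp10 are near copies in part. Of all 75-base stretches in their transcripts, 67.3% of those of Gbp6 and 77.7% of those of Gbp10 also occur in another gene, and 65.6% of those of Gbp10 occur in Gbp6. The corresponding share was 11.3% in Gbp7, 8.04% in Gbp8 and at most 3.61% in the other members, and the counts of Gbp6 and Gbp10 are uncertain for this reason.

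Interferon-responsive promoters carry short elements bound by interferon-activated factors, the interferon-stimulated response element (searched as GAAANNGAAA) and the gamma-activated site (searched as TTCNNNGAA). Sequences around the start of 4 members (RefSeq, GRCm38.p6) are shown because each holds the first of these. Capitals mark every match on either strand, and in Gbp3 a pair of matches overlap. The stretches begin 250 bases before the RefSeq start and end just before that start in Gbp7, just before an annotated exon in Gbp5 and Gbp3 and at the last match in Gbp2, whose final 12 bases, and so its match, lie in an annotated GENCODE exon. They are, all on the plus strand, chr3:142496684-142496899 for Gbp5, chr3:142530086-142530335 for Gbp7, chr3:142559794-142560025 for Gbp3 and chr3:142620413-142620613 for Gbp2.
Gbp5: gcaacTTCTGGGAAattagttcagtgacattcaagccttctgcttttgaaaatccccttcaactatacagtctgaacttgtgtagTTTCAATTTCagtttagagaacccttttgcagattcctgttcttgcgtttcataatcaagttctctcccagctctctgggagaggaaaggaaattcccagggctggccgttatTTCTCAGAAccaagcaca
Gbp7: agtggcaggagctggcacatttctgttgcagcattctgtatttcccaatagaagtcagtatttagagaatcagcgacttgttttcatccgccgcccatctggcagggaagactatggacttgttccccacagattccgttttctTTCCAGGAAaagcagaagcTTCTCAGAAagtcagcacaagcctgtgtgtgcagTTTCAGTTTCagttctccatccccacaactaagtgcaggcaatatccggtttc
Gbp3: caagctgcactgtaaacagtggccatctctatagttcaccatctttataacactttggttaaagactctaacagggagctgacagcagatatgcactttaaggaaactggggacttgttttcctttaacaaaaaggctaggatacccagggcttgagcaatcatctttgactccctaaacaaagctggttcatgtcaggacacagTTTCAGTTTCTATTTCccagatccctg
Gbp2: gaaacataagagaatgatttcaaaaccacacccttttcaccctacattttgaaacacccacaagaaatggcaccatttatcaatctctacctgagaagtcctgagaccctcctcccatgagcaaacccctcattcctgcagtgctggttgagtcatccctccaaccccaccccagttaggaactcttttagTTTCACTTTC

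Matches to GAAANNGAAA began 165 bases before the start in Gbp5, 53 in Gbp7, 45 and 39 in Gbp3 and 59 in Gbp2. A second annotated start of Gbp3 held neither motif. Gbp5 and Gbp7 each also held 2 matches to TTCNNNGAA, at 245 and 52 bases before the start in Gbp5 and at 106 and 87 in Gbp7, and no match of one motif overlapped a match of the other. Over the 32851 mouse promoters of the same length, 2.98% held GAAANNGAAA, 7.02% held TTCNNNGAA and 0.332% held both. Promoters of Gbp4, Gbp6, Gbp8, Gbp9 and Gbp10 were not analysed here.

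Per kilobase of exon, Gbp2 had the highest mean level of the members, at 10.3 CPM per kilobase (RPKM) over the 12 libraries, with a range of 3.29 to 36.3. Gbp3 followed at 3.26 RPKM, Gbp4 at 2.23, Gbp7 at 1.92 and Gbp9 at 1.62. The remaining members were lower, with Gbp5 at 0.940 RPKM, Gbp8 at 0.413, Gbp6 at 0.289 and Gbp10 at 0.254. At every place in this order the SD of a member over the libraries (9.24 RPKM for Gbp2) exceeded its step to the next member. That SD takes in variation that the members share, so it does not say how firm the order is within a library. In CybbKO ligated replicate 2, the highest library for both, Gbp2 stood at 36.3 and Gbp3 at 8.75 RPKM. The order was not the same in each group, since Gbp10 lay above Gbp6 and Gbp8 in both naive groups (0.522 RPKM against 0.268 and 0.349 in CybbKO naive) and Gbp4 lay below Gbp7 in both WT groups. Gbp2b, a family gene outside the 9 that shares the chromosome 3 cluster, had 0 to 16 counts in any library and did not pass the filter on low counts.

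Ligated tissue was compared between genotypes to ask how the inflamed gum of mice labelled CybbKO differs from that of WT. Gbp2, Gbp3, Gbp4, Gbp5, Gbp7, Gbp8 and Gbp9 had their 3 libraries labelled CybbKO all above the 3 WT libraries, and the fitted differences of all 9 members were positive. Their median was 1.57 on the log2 scale, beside 0.01 for all 15046 tested genes, and it ran from 1.03 without CybbKO ligated replicate 2 to 1.96 without WT ligated replicate 3. With edgeR 0 of the 9 passed over all genes (adjusted p from 0.996 to 1.00), where 0.00665% of all tested genes did. An unadjusted p under 0.05 was found for 8 members and for 503 of all genes. DESeq2 called 1 member, Gbp5 (adjusted p = 0.0213), and 18 of the 16053 genes to which it gave an adjusted p. Of all tested genes, 7.84% had no overlap between the genotypes in either direction, against 7 of the 9 members. The members were named with this comparison in view, so nothing is read from these counts.

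Gbp2, which is recruited to pathogen vacuoles and cytosolic bacteria, measured 8.61, 11.5 and 16.5 CPM in WT ligated replicates 1, 2 and 3. In CybbKO ligated it measured 31.6, 91.3 and 32.2 CPM. The groups did not overlap, and replicate 2 of CybbKO ligated was the highest of the 12 libraries. The fitted difference was 2.08 ± 0.62 (log2, SE), and 1.39 without that library. Gbp3, its neighbour in the cluster, measured 4.53, 8.03 and 8.72 CPM in WT ligated and 14.0, 28.6 and 14.6 CPM in CybbKO ligated, a difference of 1.43 ± 0.54. Here too the genotypes were apart and the same library was highest.

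Gbp5, which is known to promote inflammasome assembly, measured 1.52, 3.22 and 3.66 CPM in WT ligated and 6.97, 20.4 and 10.1 CPM in CybbKO ligated. Its fitted difference was the largest of the 9, at 2.16 ± 0.53, and 1.61 without CybbKO ligated replicate 2. Gbp7, which is known to bind subunits of the phagocyte NADPH oxidase and to aid its assembly on vacuoles, measured 6.32, 8.40 and 9.39 CPM in WT ligated and 14.7, 24.2 and 18.1 CPM in CybbKO ligated. That difference was 1.24 ± 0.37, and it was among the steadier ones, at 1.03 without replicate 2. In both genes the lowest library labelled CybbKO lay above the highest WT library.

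On chromosome 5, Gbp4 measured 6.80, 7.22 and 11.1 CPM in WT ligated and 17.7, 60.8 and 19.1 CPM in CybbKO ligated, a difference of 1.96 ± 0.59. Gbp8 was rarer, at 0.772, 0.707 and 0.882 CPM against 1.28, 5.24 and 2.15 CPM, with a difference of 1.87 ± 0.51. Gbp9 measured 6.92, 7.35 and 9.08 CPM against 12.4, 16.6 and 13.6 CPM, and its difference of 0.87 ± 0.26 was the smallest of the 7 members whose genotypes were apart. The genotypes were apart in each of these, and in Gbp4 and Gbp8 CybbKO ligated replicate 2 stood far above the other libraries. Without it Gbp4 differed by 1.14, Gbp8 by 1.12 and Gbp9 by 0.74.

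Gbp6 and Gbp10 were the members whose genotypes overlapped. Gbp6 measured 0.398, 0.994 and 1.63 CPM in WT ligated and 1.33, 5.70 and 2.01 CPM in CybbKO ligated (log2 difference 1.57 ± 0.71, and 0.73 without CybbKO ligated replicate 2). Gbp10 measured 0.548, 0.0262 and 0.363 CPM in WT ligated and 0.0783, 1.50 and 0.114 CPM in CybbKO ligated, which is 22, 1 and 14 counts against 3, 56 and 5 counts. A difference of 0.82 ± 1.30 in Gbp10 rested on the 1 library with 56 counts, and it was -1.66 without that library. With the counts of Gbp6 and Gbp10 summed, a choice made after seeing the data, the difference was 1.43. That sum does not take in Gm43302, so reads shared with it stay uncertain.

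**Figure D1:**
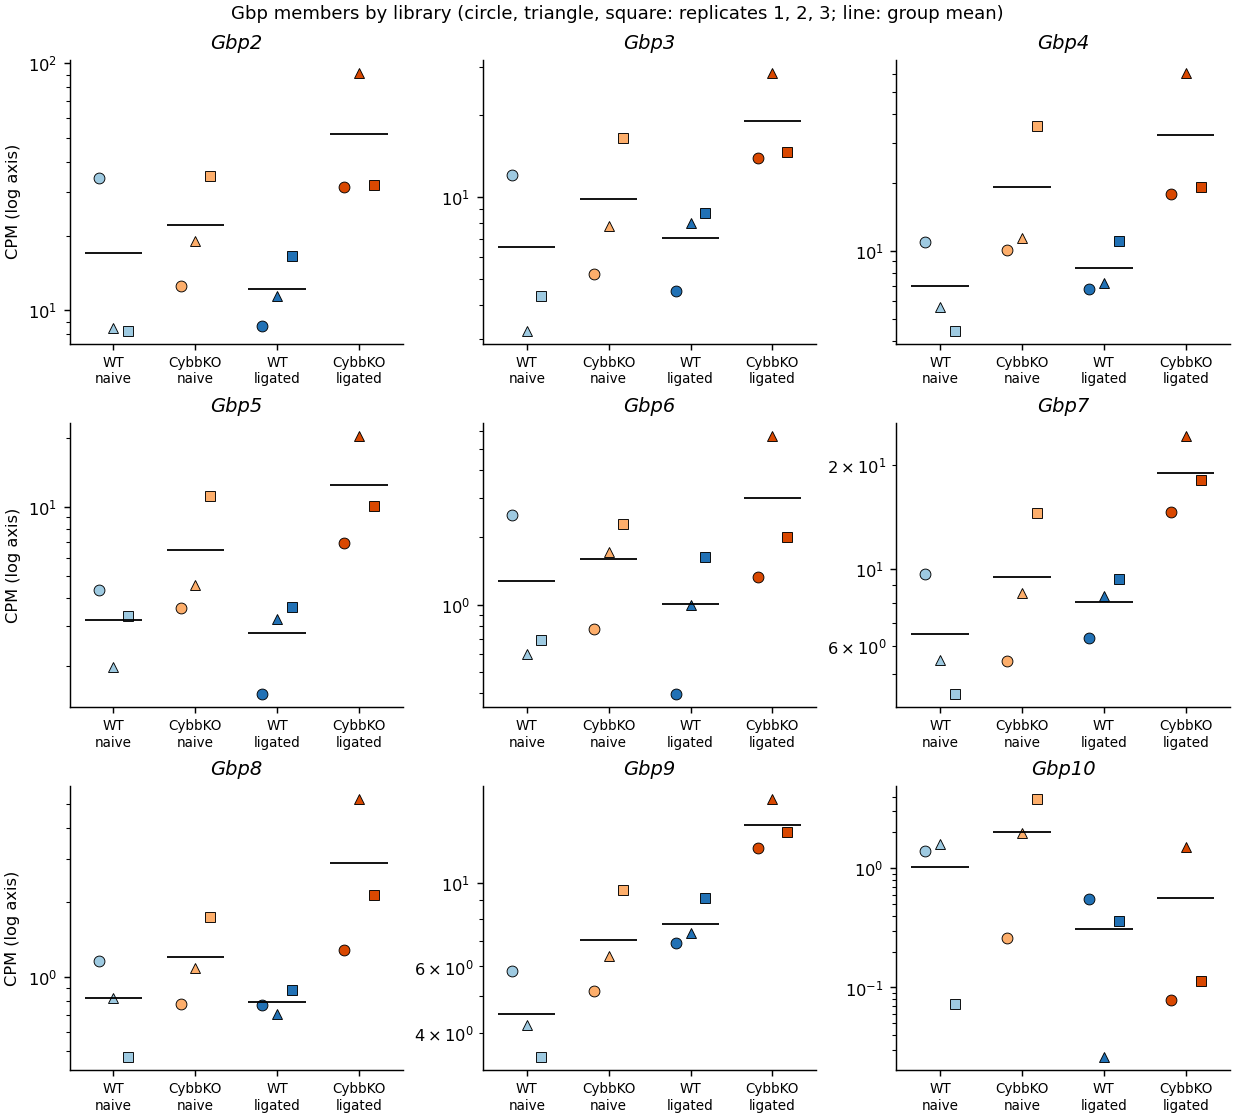
Each panel shows the CPM of 1 member on a log axis, by group, with a symbol for each of the 3 libraries and a line at the arithmetic mean. In 7 panels the CybbKO ligated symbols all lie above those of WT ligated, Gbp6 and Gbp10 being the others, and CybbKO ligated replicate 2 (triangle) is the highest symbol in all panels but that of Gbp10.

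Naive tissue showed the same sign of difference with wide overlap. All 9 fitted differences between naive libraries labelled CybbKO and WT were positive, with a median of 0.58 and a range of 0.31 to 1.44 on the log2 scale. Without CybbKO naive replicate 3 those of Gbp2 (-0.11), Gbp3 (-0.01) and Gbp6 (-0.03) turned negative. The members' median stood beside 0.00 for all tested genes. With edgeR 0 of the 9 passed (adjusted p = 1.00 in each), where 0.00665% of all tested genes did, and 2 members and 306 of all genes had an unadjusted p under 0.05. DESeq2 also called 0 of the 9, and 2 of the 18143 genes to which it gave an adjusted p. In 0 of the 9 were the genotypes apart, where 5.11% of all tested genes had no overlap in either direction.

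A single library in each naive group was high. Gbp2 measured 34.4, 8.48 and 8.27 CPM in WT naive and 12.5, 19.03 and 35.1 CPM in CybbKO naive, so the high library of each genotype reached a similar level. Gbp3 had the same shape, at 12.1, 3.23 and 4.34 CPM against 5.22, 7.85 and 16.4 CPM. The largest difference was that of Gbp4, 1.44 ± 0.59, from 10.9, 5.66 and 4.45 CPM to 10.1, 11.4 and 35.6 CPM, and it was 0.62 without CybbKO naive replicate 3. In all 3 genes WT naive replicate 1 and CybbKO naive replicate 3 were the highest of their groups.

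Gbp5 measured 4.32, 1.99 and 3.32 CPM in WT naive and 3.61, 4.55 and 11.2 CPM in CybbKO naive. Gbp7 measured 9.69, 5.47 and 4.37 CPM against 5.46, 8.55 and 14.5 CPM. Gbp9 measured 5.85, 4.21 and 3.46 CPM against 5.17, 6.38 and 9.58 CPM, a difference of 0.64 ± 0.26. Each range overlapped the other genotype's. For the rare members, Gbp6 ran from 0.601 to 2.53 CPM in WT naive and from 0.779 to 2.29 CPM in CybbKO naive, and Gbp8 from 0.474 to 1.16 and from 0.779 to 1.74 CPM. Over the 9 members the median difference was 0.12 with CybbKO naive replicate 3 left out and 1.28 with WT naive replicate 1 left out.

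The ligature itself was compared with naive tissue within each genotype. These comparisons share libraries with those above, so their values are set side by side and not counted as further evidence. In WT tissue the median log2 difference of ligated from naive was -0.06 over the 9 members, 4 members were positive and 5 negative, and 0 passed with edgeR, where 3.20% of all tested genes did. An unadjusted p under 0.05 was found for 1 member and for 2999 of the 15046 genes. Marker medians in this comparison were 1.83 for neutrophils, 1.38 for fibroblasts, 0.90 for endothelium, 0.89 for monocytes and macrophages, 0.69 for T and NK cells, 0.53 for skeletal muscle, -0.15 for oral epithelium, -0.26 for B and plasma cells and -1.08 for salivary gland. Gbp9 alone had its ligated libraries wholly above the naive ones, 6.92 to 9.08 CPM against 3.46 to 5.85 CPM (0.79 ± 0.26, edgeR adjusted p = 0.122, DESeq2 adjusted p = 0.0450). The groups were apart in either direction in 24.9% of all tested genes. Gbp2 differed by -0.49 ± 0.61 and Gbp5 by -0.20 ± 0.53. Without WT naive replicate 1, the high library of its group, the family median was 0.64.

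In CybbKO tissue 8 of the 9 members had a positive difference with the ligature, with a median of 0.96 on the log2 scale beside -0.03 for all tested genes. Gbp9 passed, rising by 1.01 ± 0.26 with the ligature (edgeR adjusted p = 0.0256), and it was the 1 member called where 13.0% of all tested genes were. An unadjusted p under 0.05 was found for 3 of the 9 members and for 4172 of the 15046 genes. Markers of 5 other cell types differed as much or more in this comparison, with a median of 2.73 for neutrophils (10 of 10 passed), 2.38 for fibroblasts (7 of 8), 1.62 for monocytes and macrophages (11 of 12), 1.04 for T and NK cells (1 of 9) and 1.01 for endothelium (7 of 8). The medians were 0.43 for salivary gland, -0.20 for skeletal muscle, -0.25 for oral epithelium and -0.48 for B and plasma cells. Their part in the Gbp differences was not tested. Gbp7 came next, from 5.46 to 14.5 CPM in naive to 14.7 to 24.2 CPM in ligated libraries (1.00 ± 0.37, edgeR adjusted p = 0.0993, DESeq2 adjusted p = 0.0432). Gbp7 and Gbp9 were the members with the ligated libraries wholly higher, and 31.4% of all tested genes had no overlap in either direction. The other positive members differed by 0.77 (Gbp4) to 1.27 (Gbp8), and Gbp10 by -1.85 ± 1.21. Leaving out CybbKO ligated replicate 2 gave 0.52 for Gbp2, 0.52 for Gbp8, 0.07 for Gbp6, -0.05 for Gbp4 and -4.33 for Gbp10, and a family median of 0.52.

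The call of Gbp9 was close to the threshold. Its edgeR adjusted p was 0.0547 without CybbKO ligated replicate 1, 0.0679 without replicate 3, 0.0920 without CybbKO naive replicate 1 and 0.0838 without CybbKO naive replicate 2, while the log2 difference stayed between 0.83 and 1.30. With Gbp4, Gbp8 and Gbp9 counted as 1 gene, a choice made after seeing the data, the sum differed by 0.86 and did not pass (edgeR adjusted p = 0.250).

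**Figure D2:**
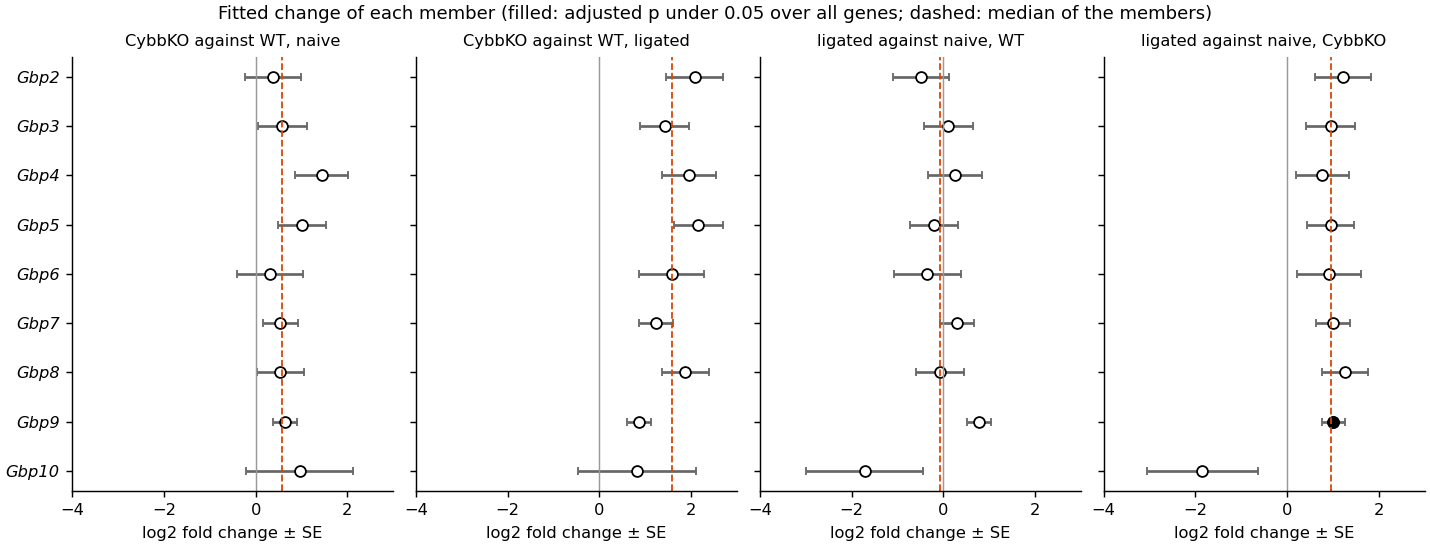
Fitted log2 fold change of each member (points) with its standard error (bars) in the 4 comparisons, the median of the 9 members as a dashed line and a filled point where the adjusted p over all genes was under 0.05. All points lie right of 0 in both comparisons of genotypes, they scatter around 0 for the ligature in WT, and Gbp9 in CybbKO is the filled point.

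Whether the genotypes differed more with the ligature than without was tested by the interaction of genotype and ligature. With edgeR 0 members passed (adjusted p = 1.00 in each), as did 0% of all tested genes. An unadjusted p under 0.05 was found for 0 members and 342 of all genes. DESeq2 also called 0 members. The interaction was positive in 8 members with a median of 0.84, from -0.14 (Gbp10) to 1.70 ± 0.86 (Gbp2), and that median ranged from 0.27 to 1.43 as single libraries were left out.

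Ordered by mean CPM, CybbKO ligated was the highest group in all members but Gbp10, where CybbKO naive was highest. CybbKO naive came next in Gbp2 to Gbp8, and WT ligated in Gbp9. The libraries of the first and second groups were apart in Gbp7 and Gbp9 and overlapped in the other members. Below that place, neighbouring groups overlapped in all 9 members.

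The variation between libraries of 1 group was shared across members. With each gene's log2 CPM centred on its own mean, the average over the 9 members was highest in CybbKO ligated replicate 2 (1.87), followed by CybbKO naive replicate 3 (1.10), CybbKO ligated replicate 3 (0.52) and WT naive replicate 1 (0.36). It was lowest in WT naive replicate 3 (-1.22), WT ligated replicate 1 (-0.81) and WT ligated replicate 2 (-0.78). CybbKO ligated replicate 2 was the highest of the 12 libraries for 8 of the 9 members, and WT naive replicate 3 the lowest for 5. The pooled SD within groups was 0.766 on this scale. WT naive replicate 3 is also the library with the high salivary gland markers. WT naive replicate 1, the highest of its group for the family, had the lowest of these markers, at 63.7 CPM. The part of that tissue in these Gbp levels was not tested.

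**Figure D3:**
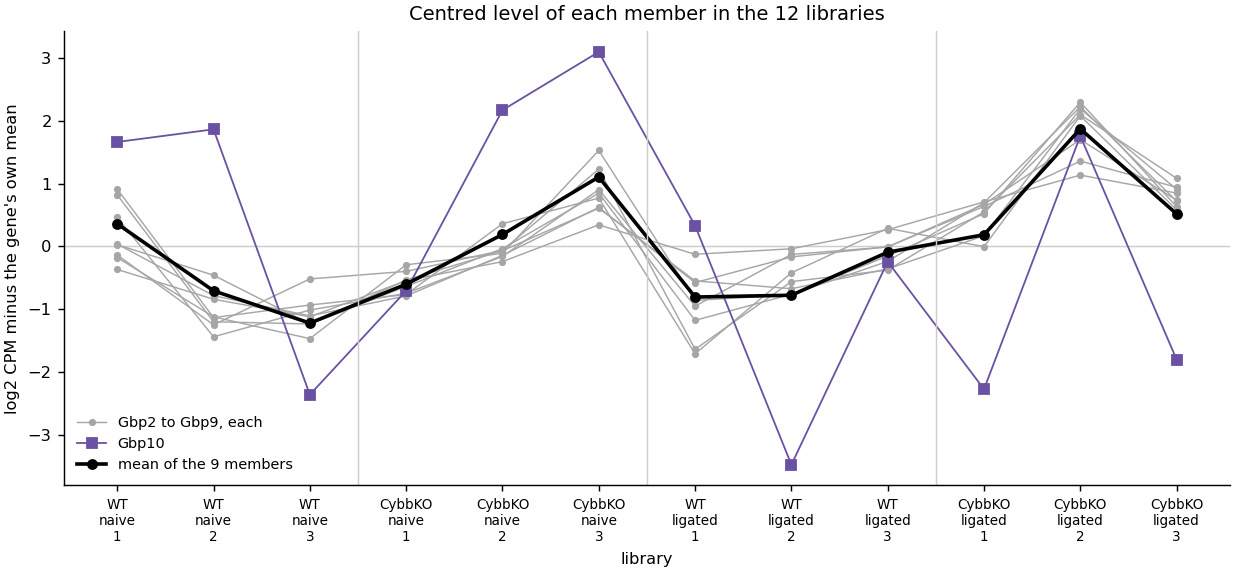
Log2 CPM of each member minus its own mean (vertical axis) in the 12 libraries by group (horizontal axis), with Gbp2 to Gbp9 in grey, Gbp10 in purple and the mean of the 9 members in black. The grey lines run together and peak in CybbKO ligated replicate 2, with a second peak in CybbKO naive replicate 3, while Gbp10 runs apart from them, for instance at 1.86 in WT naive replicate 2 and -3.48 in WT ligated replicate 2.

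Members were compared by the root mean square difference of these centred values over the 12 libraries, as a description with no test. The closest pair was Gbp7 and Gbp9 (0.237), although they lie on different chromosomes, followed by Gbp3 and Gbp7 (0.289) and Gbp2 and Gbp3 (0.296). Gbp8 was closest to the mean of the other members (0.307) and Gbp9 the least close after Gbp10 (0.599), its SD over the libraries being the smallest of the 9 at 0.686. Gbp10 lay 1.99 from the others. It had 46, 51 and 2 counts in WT naive and 9, 72 and 125 counts in CybbKO naive. The libraries high for Gbp10 were thus not all those high for the family, as WT naive replicate 2 had 51 counts of Gbp10 and was below the mean in all 8 other members.

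**Figure D4:**
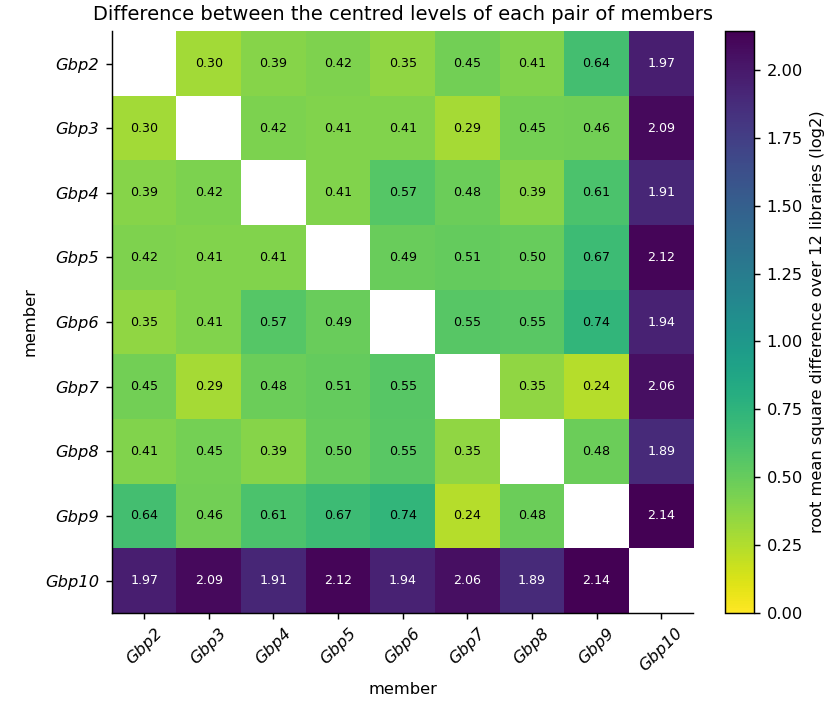
Root mean square difference between the centred log2 levels of each pair of members over the 12 libraries, written in each cell and coloured from yellow (alike) to dark (unlike). Gbp10 differs by 1.89 or more from every other member, and the cell of Gbp7 and Gbp9 holds the lowest value.

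Outside the family, the gene whose centred pattern was most like the mean of the members was Irgm2, an immunity-related GTPase, at 0.253 where the median of 15037 tested non-members was 0.912. B2m, the light chain of MHC class I, came next at 0.263 and Irgm1 at 0.312. Irf7, an interferon regulatory factor, followed at 0.353, Oas1a, which makes the activator of RNase L, at 0.358, Igtp at 0.360, Oas1g at 0.365 and Ifi47, a further immunity-related GTPase, at 0.385. Scaled by library size only, these 8 genes kept the same order.

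The immunity-related GTPases varied over the libraries much as the Gbp members did. All 7 tested had a positive difference of ligated CybbKO from WT, with a median log2 difference of 2.16. With edgeR 0 passed over all genes and 7 had an unadjusted p under 0.05, as did 503 of all 15046 tested genes. Summed over the list, the level was 36.4, 49.0 and 56.5 CPM in WT ligated and 93.9, 268.1 and 106.6 CPM in CybbKO ligated. In naive tissue it was 113.4, 31.8 and 28.9 CPM in WT and 48.2, 68.0 and 133.0 CPM in CybbKO, with the same high library in each group as for the family. Irgm1 differed by 1.10 ± 0.39 and Irgm2 by 1.56 ± 0.51 between ligated genotypes, and Igtp by 2.16 ± 0.75. Naive genotypes differed by a median of 0.46, ligated from naive WT by -0.29 and ligated from naive CybbKO by 0.86, with 0 passing in each and at most 1 at an unadjusted p under 0.05. In the same order, 0.00665%, 3.20% and 13.0% of all tested genes passed, and 306, 2999 and 4172 had such a p.

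Of the interferon-gamma pathway, Ifng itself was near absent, at 0 to 0.244 CPM in any library, and was not tested. The receptor chains Ifngr1 and Ifngr2 and the kinases Jak1 and Jak2 differed by -0.01 to 0.25 between ligated genotypes. Irf1, an interferon-induced transcription factor, differed by 0.99 ± 0.25. It measured 20.1, 26.1 and 24.3 CPM in WT ligated and 34.3, 62.7 and 42.9 CPM in CybbKO ligated, with the genotypes apart. Nlrc5, the activator of MHC class I genes, differed by 1.81 ± 0.60 and Irf8, a factor of myeloid cells, by 0.66 ± 0.30. Of 11 tested genes 10 were positive, the median was 0.25, and with edgeR 0 passed. An unadjusted p under 0.05 was found for 4 of them and for 503 of all 15046 tested genes.

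With the ligature in CybbKO tissue 3 of the 11 tested genes of this pathway passed with edgeR, all higher, where 13.0% of all tested genes passed. They were Irf1 (1.08 ± 0.25, adjusted p = 0.0182), Irf8 (1.50 ± 0.31, adjusted p = 0.00969) and Ciita, the activator of MHC class II genes (1.06 ± 0.22, adjusted p = 0.00905). In WT tissue 0 of the 11 passed, where 3.20% of all tested genes did. Before adjustment 1 of the 11 was below 0.05, as were 2999 of all 15046 tested genes. Over the list the median difference with the ligature was 0.39 in CybbKO and 0.14 in WT, and between naive genotypes it was 0.13 with 0 passing. Irf8 alone of the list was below 0.05 there before adjustment, beside 306 of all tested genes. It ran the other way from ligated tissue, at -0.71 ± 0.31.

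Type I interferon-stimulated genes, of which 11 were tested, had 10 positive between ligated genotypes with a median of 0.95, and 0 passed with edgeR. An unadjusted p under 0.05 was found for 1 of them and for 503 of all 15046 tested genes. Summed over the list, they had the same high library in each group as the family, at 89.4 CPM in WT naive replicate 1, 93.9 in CybbKO naive replicate 3, 76.3 in WT ligated replicate 3 and 152.2 in CybbKO ligated replicate 2. Their median was 0.52 between naive genotypes, 0.02 for the ligature in WT and 0.40 in CybbKO. Genes that make or sense type I and III interferon had a median of 0.29 over 9 tested between ligated genotypes, and 0 passed, with 1 at an unadjusted p under 0.05. The genes Ifnl2 and Ifnl3 had 0 counts in every group and Ifnb1 in all but CybbKO ligated.

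Downstream of the Gbp proteins, 5 of 8 inflammasome effectors were positive between ligated genotypes, with a median of 0.34 and 0 passing. An unadjusted p under 0.05 was found for 3 of them and for 503 of all 15046 tested genes. With the ligature in CybbKO 4 of the 8 passed with edgeR, where 13.0% of all tested genes did, and they are named after their values were seen. Nlrp3, an inflammasome sensor, rose by 2.37 ± 0.44 (adjusted p = 0.00565), Gsdmd, the pore former of pyroptosis, by 1.20 ± 0.22 (adjusted p = 0.00615) and Casp4, the mouse gene of caspase-11, by 0.97 ± 0.26 (adjusted p = 0.0304), whereas Casp1, the protease of the canonical inflammasome, fell by 0.69 ± 0.18 (adjusted p = 0.0280). In WT 0 of the 8 passed, where 3.20% of all tested genes did. An unadjusted p under 0.05 was found for 2999 of all 15046 tested genes and for 4 of the 8. These were Nlrp3 (1.29 ± 0.44), Aim2 (0.77 ± 0.29), Casp1 (-0.55 ± 0.18) and Il18 (-0.61 ± 0.21). Gsdmd, at 0.45 ± 0.22, and Casp4, at 0.46 ± 0.26, were not below 0.05 there. Genes of autophagy conjugation and ubiquitin ligases, which help to bring Gbp proteins to the vacuole, had a median of 0.05 between ligated genotypes over 11 tested, and the other dynamin-superfamily GTPases such as mitofusins and atlastins -0.08 over 8. None of these passed with edgeR, with 0 and 1 at an unadjusted p under 0.05, beside 503 of all tested genes.

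Markers of immune cells had positive differences between ligated genotypes as well, of which 0 passed. They were positive in 9 of 9 tested T and NK cell markers (median 0.44), 12 of 12 monocyte and macrophage markers (median 0.52) and 10 of 10 neutrophil markers (median 1.41). With edgeR 0 passed in each list, and 2, 5 and 9 had an unadjusted p under 0.05, beside 503 of all 15046 tested genes. Summed T and NK cell markers were 9.47 to 16.3 CPM in WT ligated and 17.5 to 21.4 CPM in CybbKO ligated, and 2.84 to 11.4 and 7.33 to 12.1 CPM in WT and CybbKO naive. Summed monocyte and macrophage markers were 348.8 to 515.1 and 432.1 to 673.0 CPM in the ligated groups, and 268.1 to 309.0 and 249.8 to 257.8 CPM in the naive ones. Neutrophil markers summed to 1328 to 3694 CPM in WT ligated and 2493 to 11604 CPM in CybbKO ligated, and to 343.3 to 828.4 and 807.7 to 914.4 CPM in the naive groups. No gene of these lists was at 0 across a group. In bulk tissue, fewer cells of a type and less RNA per cell cannot be told apart.

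In CybbKO ligated replicate 2, the library highest for the family, neutrophil markers (2493 CPM), monocyte and macrophage markers (432.1 CPM) and fibroblast markers (4458 CPM) were the lowest of the group. T and NK cell markers (19.1 CPM) were the middle value there, and epithelial markers (103850 CPM) the highest. Skeletal muscle markers were also highest there, at 2690 CPM against 949 and 832 in replicates 1 and 3. They were highest of their group in CybbKO naive replicate 3 (2875 CPM) and WT ligated replicate 3 (2401 CPM) too, the libraries highest for the family in those groups, but in WT naive they peaked in replicate 2 (1922 CPM) and the family in replicate 1. CybbKO ligated replicate 3 had the most neutrophil marker counts, at 11604 CPM, and 112.1 CPM of the family against 254.4 CPM in replicate 2. In CybbKO naive replicate 3, T and NK cell markers were the highest of their group (12.1 CPM) and neutrophil markers the lowest (807.7 CPM). In the WT groups the library highest for the family was also highest for neutrophil markers, at 828.4 CPM against 377.0 and 343.3 in naive and 3694 CPM against 1328 and 2559 in ligated tissue. It was highest for T and NK cell markers as well (11.4 and 16.3 CPM), and in WT ligated for monocyte and macrophage markers (515.1 CPM). Epithelial markers were lowest of their group in WT naive replicate 1 (76541 CPM) and WT ligated replicate 3 (60466 CPM). In CybbKO naive replicate 3 they were the middle value (104579 CPM). Salivary gland markers were lowest of their group in WT naive replicate 1 (63.7 CPM) and WT ligated replicate 3 (2564 CPM). They were also lowest in CybbKO ligated replicate 2 (1957 CPM) but highest of their group in CybbKO naive replicate 3 (2543 CPM). The part of all these markers in the Gbp differences was not tested.

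The remaining marker lists had medians between ligated genotypes of 0.07 (B and plasma cells, 5 tested), 0.25 (endothelium, 8), 0.27 (fibroblasts, 8), -0.04 (oral epithelium, 8), -0.17 (skeletal muscle, 8) and -0.22 (salivary gland, 6), with 0 passing and 0 at an unadjusted p under 0.05 in each.

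**Figure D5:**
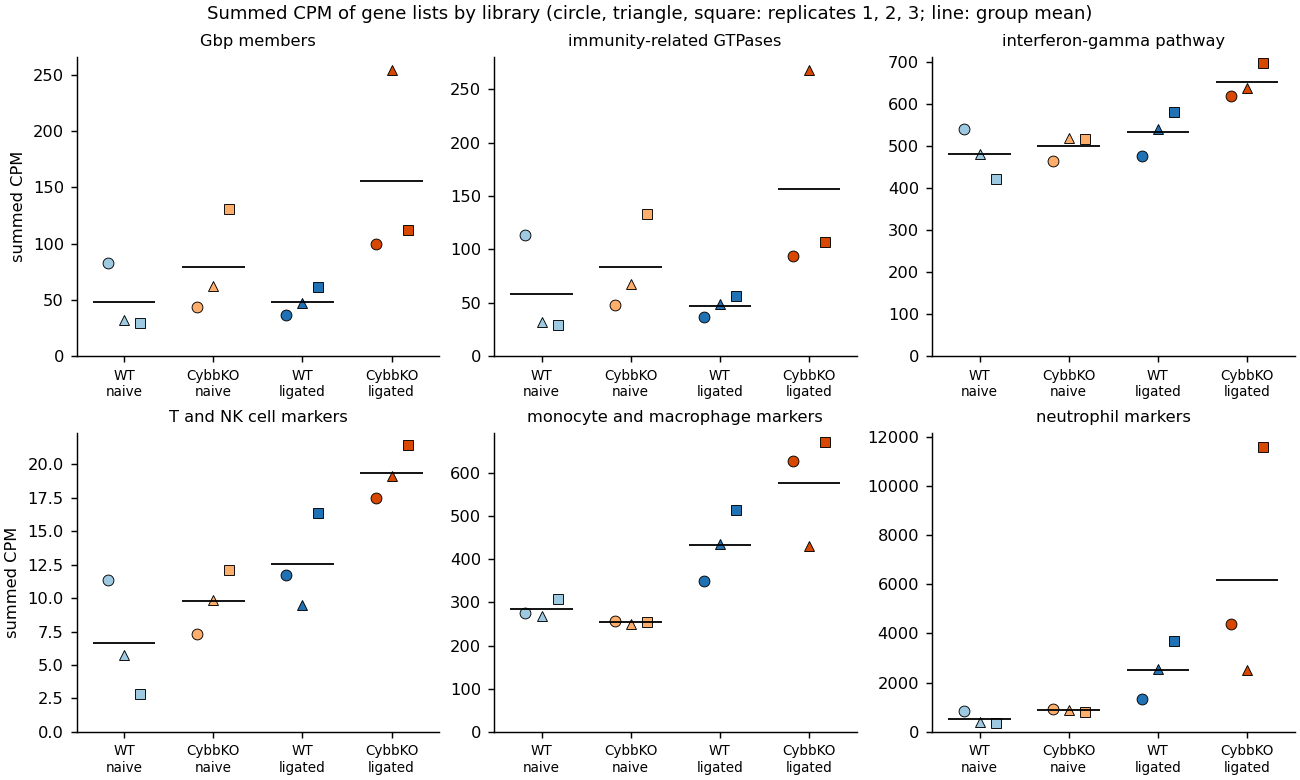
Summed CPM (linear axes from 0) of the 9 Gbp members and of 5 other lists by group, with a symbol for each library and a line at the mean. The immunity-related GTPases have the same high library in each group as the family, and neutrophil markers share it in both WT groups but peak in replicate 3 of CybbKO ligated and replicate 1 of CybbKO naive.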

How the data were processed

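RNA-seq of gingival tissue was analysed in 12 libraries, 3 in each of 4 groups by their GEO labels. Values were raw read counts per Ensembl gene as deposited by the authors, with no normalization. Per the methods, stranded mRNA libraries were aligned to GRCm38 with STAR and counted by strand with featureCounts. The submitters' processing notes name HTSeq 0.10.0 instead, and the deposited counts carry HTSeq in their name. The deposit and the methods thus differ on the tool. Either way reads shared by near copies or overlapping genes could be lost or split.

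Symbols came from GENCODE M21, matching 21939 of 21965 genes. Counts were fitted in R 4.3.3 with edgeR 4.0.16 (filterByExpr, TMM factors 0.918 to 1.08, quasi-likelihood test, 1 mean per group over 12 libraries), leaving 15046 genes and all 9 members. P-values were adjusted by Benjamini-Hochberg over all 15046, with a threshold of 0.05. CPM used TMM-scaled totals, RPKM the bases of all exons, and centred log2 CPM a prior count of 0.5. The common biological coefficient of variation was 0.240, a value for all tested genes together that need not hold for the members. Between ligated genotypes the members' standard errors ran from 0.26 (Gbp9) to 1.30 (Gbp10) on the log2 scale. Precision was limited in abundant members too, at 0.62 in Gbp2. No 2 libraries of a group were identical or agreed within counting noise.

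The members, lists and alternatives were chosen with earlier results of these data known. Named genes were all members, any gene of the interferon-gamma list (1 is not reported here) and of the immunity-related GTPase list, at most the 3 most abundant genes of other lists, and the 8 non-members most like the family. Cybb was named as a check of the labels, and Gm43302 for the sequence it shares with Gbp6 and Gbp10. Ifnb1, Ifnl2 and Ifnl3 at 0 and the inflammasome genes given were named outside this rule, after their values were seen. Alternatives were DESeq2 1.42.0, other scalings and filters, a fit of the compared libraries only, the replicate number as a block, each library left out and, added after seeing the data, sums of members with shared sequence. Scripts were tested on simulated counts. Promoter sequences were those of RefSeq. The members' proteins were not used here.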

Additional observations from a re-analysis of the deposited data

How the results depend on the processing

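Of 331 fitted member differences under settings other than leaving a library out, 326 kept their direction and their side of the threshold. With DESeq2 all-gene calls were 18 and 2 between ligated and naive genotypes, 1372 for the ligature in WT and 2802 in CybbKO, and member calls 1 (Gbp5), 1 (Gbp9, in WT) and 2 (Gbp7 and Gbp9, in CybbKO). A fit of only the compared libraries called 0 genes between ligated genotypes. Scaling by library size only turned Gbp8 for the ligature in WT to 0.05, and summing Gbp6 with Gbp10 gave -0.02 for the ligature in CybbKO, where 0 summed members passed. The cause was not tested, beyond the summing itself, which does not take in Gm43302.

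The replicate number did not pair the libraries, since the correlation of same-numbered deviations ran from -0.204 to 0.257 over 18 pairs. With it as a replicate block, 271 genes were called for the ligature in WT instead of 481, and no call of a member changed.

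Leaving out single libraries, all-gene calls ranged from 0 to 2 between ligated genotypes, 27 to 900 for the ligature in WT, 837 to 2949 in CybbKO and 0 to 1 for the interaction, and member calls from 0 to 2 in CybbKO. Differences that changed sign between ligated genotypes were those of Gbp10 (-1.66 to 1.45). Between naive genotypes they were Gbp2 (-0.11 to 1.41), Gbp3 (-0.01 to 1.38) and Gbp6 (-0.03 to 1.30). For the ligature in WT they were Gbp2 (-0.81 to 0.54), Gbp3 (-0.22 to 0.91), Gbp4 (0.00 to 0.73), Gbp5 (-0.45 to 0.13), Gbp6 (-0.88 to 0.64) and Gbp8 (-0.33 to 0.27). In CybbKO it was Gbp4 (-0.05 to 1.60), and for the interaction Gbp4 (-0.30 to 1.34), Gbp9 (-0.01 to 0.51) and Gbp10 (-2.62 to 0.70). A group left with 2 libraries takes its spread from all groups. Gbp10 had 1 to 125 counts per library, so its lowest values rest on few reads.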
